A study of Mus musculus with 8 samples.

Results

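The RNA recovered from mouse brain with an antibody against CaMKIIβ was compared, gene by gene, with the RNA recovered with a control IgG antibody. All 3 CaMKIIβ and all 3 control libraries of the series were chosen by antibody, which makes 6 of its 8 libraries, and the comparison covered the 20566 of 55401 genes that passed 1 count filter. RNA immunoprecipitation (RIP) pulls a protein out of a lysate with an antibody and sequences the RNA that comes along. The tissue was labelled hippocampus of C57BL/6 mice, with no other genotype, treatment or age given, and the remaining 2 libraries were Input, RNA that was not immunoprecipitated. The labels do not say whether replicates came from separate animals, so that the p-values measure the spread between these libraries, which may be technical.

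CaMKII, calcium/calmodulin-dependent protein kinase II, is a kinase of the postsynaptic density assembled from α, β, γ and δ subunits. Calcium-bound calmodulin activates it, and autophosphorylation then keeps it active after calcium has fallen, a step central to the strengthening of hippocampal synapses. The β subunit also binds and bundles actin filaments in dendritic spines. By its title, the series set out to find long noncoding RNAs that CaMKIIβ binds, and the IgG libraries give the background of RNA that sticks to any antibody and bead. A long noncoding RNA is a transcript without a long protein-coding frame.

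CaMKIIβ replicate 2 and, less so, replicate 3 stood apart from the other libraries in the comparison of libraries given below. Of 146 genes chosen for description, the difference had the other sign for 14, 29 and 30 without CaMKIIβ replicates 1, 2 and 3. For each replicate, 12 of these sign changes were between values within 0.1 of 0. The difference kept its sign but moved by more than 1.5 times for 68, 74 and 47. Values without replicate 2 or 3 are given for the genes and groups where a statement turns on them. Those without replicate 1 mostly are not given. No gene passed the test of a difference between the antibodies. Of 20566 genes tested, 0 (0%) had an adjusted p under 0.05 in edgeR's quasi-likelihood test with Benjamini-Hochberg adjustment, and the smallest adjusted p was 0.982. The count was also 0 without CaMKIIβ replicate 2 and without replicate 3. At an unadjusted p under 0.05 there were 721 genes (3.51%), of which 454 (2.21%) were at a higher and 267 (1.3%) at a lower estimate with CaMKIIβ. Levels are given as CPM, each gene's counts relative to the library total as scaled by TMM (edgeR's factors for library composition), and differences as log2 of CaMKIIβ over IgG with the standard error of the fit (SE), n = 3 libraries each. Differences in the total RNA recovered by the 2 antibodies cannot be seen on this scale, nor can fewer cells of a type be told apart from less RNA per cell.

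Noncoding RNAs on which the results turn are shown at their starts, 5 in all: Malat1 as the most abundant, Meg3 as one of the 3 measured most closely, Bc1 as a noncoding RNA of dendrites, Gm8098 as the one with the smallest p of the 4 highest, and Pitpnm2os1 as the one with most counts of the 4 lowest. Sequences are from RefSeq on GRCm38.p6, written from 5′ to 3′, with 30 bases before the start in lower case and the first 50 transcribed bases in capitals.
Malat1 (chr19:5802623-5802702, minus strand): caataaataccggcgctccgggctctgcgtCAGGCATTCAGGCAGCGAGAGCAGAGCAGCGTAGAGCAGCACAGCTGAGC
Meg3 (chr12:109540966-109541045, plus strand): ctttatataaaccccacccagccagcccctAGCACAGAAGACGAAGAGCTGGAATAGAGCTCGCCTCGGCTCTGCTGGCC
Bc1 (chr7:144914440-144914519, plus strand): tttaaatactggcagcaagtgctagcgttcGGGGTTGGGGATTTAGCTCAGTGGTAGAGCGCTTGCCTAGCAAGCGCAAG
Gm8098 (chr11:30267428-30267507, plus strand): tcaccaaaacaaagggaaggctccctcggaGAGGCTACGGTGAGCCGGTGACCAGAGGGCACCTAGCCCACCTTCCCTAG
Pitpnm2os1 (chr5:124229695-124229774, plus strand): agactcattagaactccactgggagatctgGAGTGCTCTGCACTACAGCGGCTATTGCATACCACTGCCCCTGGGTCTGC

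The transcripts of the kinase itself did not differ beyond the spread between libraries, and their differences were measured closely. Camk2b, which encodes the precipitated subunit (chromosome 11, bases 5969644 to 6066362), was at 1075, 857 and 1016 CPM with CaMKIIβ and 989.6, 944 and 1070.4 CPM with IgG. The groups overlapped, and the log2 difference was -0.03 ± 0.10, with a 95% interval of -0.25 to 0.20. Camk2a, which encodes the α subunit found with β in most forebrain holoenzymes, was at 1650.1, 1317 and 1713 CPM with CaMKIIβ and 1501, 1512 and 1679 CPM with IgG, with replicate 2 of CaMKIIβ the lowest library. Its difference was -0.0035 ± 0.11, with an interval of -0.24 to 0.24. Camk2g and Camk2d, which encode the more widely expressed γ and δ subunits, had overlapping groups and differences of -0.02 ± 0.11 and 0.07 ± 0.09. Without CaMKIIβ replicate 2 the 4 differences were 0.01 to 0.10, and without replicate 3 they were -0.08 to 0.01. All 4 subunit genes had a 95% interval within 1.5-fold in either direction, as did 6348 of all 20566 genes.

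Among 15 genes for CaMKII inhibitors, calmodulin and the related kinases, 0 passed the test. The median difference was 0.03, against -0.02 over all genes tested, and 13 of the 15 had an interval within 2-fold. Calm2 and Calm3 encode the same calmodulin protein, the calcium sensor of the kinase. Calm2 was at 318, 321 and 314 CPM with CaMKIIβ and 306, 313 and 314 CPM with IgG, an even level in all 6 libraries, with a difference of 0.03 ± 0.08. Calm3 differed by 0.02 ± 0.09. Camk2n1, an endogenous inhibitor that binds the active kinase, was at 242, 261 and 294 CPM with CaMKIIβ and 251, 287 and 274 CPM with IgG, with overlapping groups and a difference of -0.03 ± 0.10.

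The second inhibitor gene, Camk2n2, had the highest estimate of these 15. It was at 30.1, 72.8 and 42.5 CPM with CaMKIIβ and 20.9, 27.1 and 30.96 CPM with IgG. Replicate 2 of CaMKIIβ was the highest library, and replicate 1 of CaMKIIβ lay below replicate 3 of IgG, so the groups overlapped. The difference was 0.88 ± 0.29 (unadjusted p = 0.0134, adjusted p = 0.982), and it was 0.46 without CaMKIIβ replicate 2. Of the upstream kinases, Camkk2 differed by 0.06 ± 0.10 and Camkk1 by 0.29 ± 0.15, or 0.12 without CaMKIIβ replicate 2. Camk4, a nuclear kinase of the same cascade, differed by 0.03 ± 0.13, and the pseudokinase Camkv by 0.21 ± 0.14, or 0.04 without replicate 2. Camk1, Camk1d, Camk1g and Pnck, the CaMKI group, had differences of -0.27 ± 0.18, -0.15 ± 0.10, 0.11 ± 0.22 and 0.25 ± 0.19, which were -0.18, -0.11, -0.04 and 0.09 without replicate 2. Nrgn, the calmodulin-binding neurogranin, differed by 0.01 ± 0.16, or 0.14 without replicate 2 and -0.19 without replicate 3. The calmodulin regulator Pcp4 was the 1 member near the floor, at 0.604, 0.114 and 0.895 CPM with CaMKIIβ and 0.655, 1.75 and 1.23 CPM with IgG, and its interval of -3.46 to 1.15 gave no direction.

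**Figure D1:**
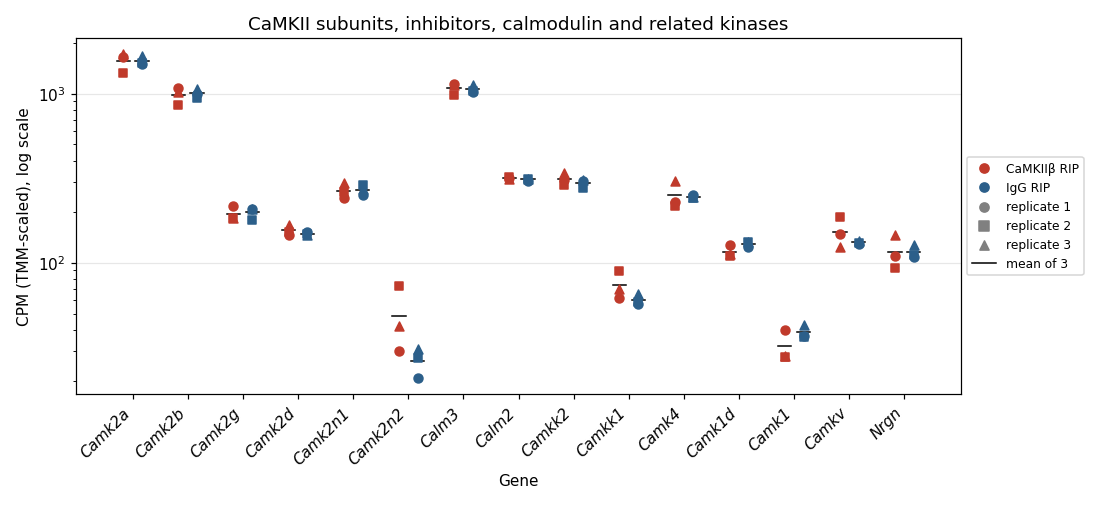
CPM on a log axis (vertical) for 15 genes of CaMKII, its inhibitors, calmodulin and related kinases, with 1 point per library (red CaMKIIβ RIP, blue IgG RIP; circle, square and triangle for replicates 1, 2 and 3) and a line at the mean of 3. The groups lie at the same height for the 4 subunit genes, and Camk2n2 reaches 72.8 CPM in CaMKIIβ replicate 2.

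Of 1134 long noncoding RNA genes tested, 0 (0%) had an adjusted p under 0.05, and 23 (2.03%) had an unadjusted p under 0.05, with 10 (0.882%) higher and 13 (1.15%) lower, against 3.51% of all genes. All 3 CaMKIIβ libraries lay above all 3 IgG libraries for 31 of them (2.73%), against 1054 of all genes (5.12%). They lay below for 102 (8.99%), against 1425 of all genes (6.93%). For comparison, 0 of 14095 protein-coding genes passed, 584 (4.14%) had an unadjusted p under 0.05, with 392 (2.78%) higher and 192 (1.36%) lower, and the CaMKIIβ libraries lay above for 829 (5.88%) and below for 870 (6.17%). The median difference was -0.14 over long noncoding RNA genes and 0.0037 over protein-coding genes. It was -0.25 over the 644 long noncoding RNA genes below an average log2 CPM of 1. At 1 to 3, 3 to 5 and 5 or more it was -0.08, -0.08 and -0.05. Of the 102 that lay below, 36 had 0 counts in CaMKIIβ replicate 2. Pseudogenes and genes without a RefSeq match had medians of -0.11 and -0.10. The long noncoding class holds only genes with a RefSeq match. Any long noncoding RNAs among the 4412 tested genes without a match are not counted in it. Whether the classes differ at equal level was not tested.

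No abundant long noncoding RNA passed the test, and 1 library of CaMKIIβ lay apart for some of them. Malat1, a nuclear RNA of splicing speckles (chromosome 19, bases 5795690 to 5802672), was at 7163, 5539.6 and 10724 CPM with CaMKIIβ and 8311, 8164 and 7782 CPM with IgG. Replicate 3 of CaMKIIβ was the highest library and replicate 2 the lowest, and the difference was -0.05 ± 0.19. It was 0.14 without replicate 2 and -0.35 without replicate 3, so its sign turned on 1 library. Norad, a cytoplasmic RNA that binds Pumilio proteins, was at 1389.6, 1081 and 2649 CPM with CaMKIIβ and 1393, 1625 and 1332 CPM with IgG, where replicate 3 was the only library above 2000 CPM. Its difference of 0.24 ± 0.27 turned to -0.23 without that replicate. Snhg11 and Mir124a-1hg, the host gene of a miR-124 copy, differed by -0.14 ± 0.16 and -0.10 ± 0.15, and Snhg14, from the imprinted Prader-Willi region, by 0.07 ± 0.16. In each of these 3 the groups overlapped, and their differences were 0.05, 0.06 and 0.21 without replicate 2 and -0.27, -0.25 and -0.14 without replicate 3.

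3 long noncoding RNAs were measured most closely, with the narrowest intervals of the class. Meg3, a maternally expressed imprinted RNA, was at 188, 177 and 205 CPM with CaMKIIβ and 201, 191 and 216 CPM with IgG, and its interval of -0.31 to 0.12 leaves room for no 1.5-fold change in either direction. Miat, a nuclear RNA of neurons, was at 94.1, 93.3 and 102 CPM with CaMKIIβ and 98.8, 96.1 and 97.4 CPM with IgG, and the 6 libraries lay within 8.21 CPM of each other. Peg13, an imprinted RNA of the Kcnk9 region, had an interval of -0.23 to 0.22. Over the class, the interval lay within 2-fold for 140 of 1134 genes and lay wholly below a 2-fold excess with CaMKIIβ for 321. Both counts followed the level. Among 644 long noncoding RNA genes below an average log2 CPM of 1, 0 had an interval within 2-fold, and 38 lay below a 2-fold excess. Between 3 and 5 the counts were 63 and 82 of 90, and at 5 or more 29 and 30 of 30.

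**Figure D2:**
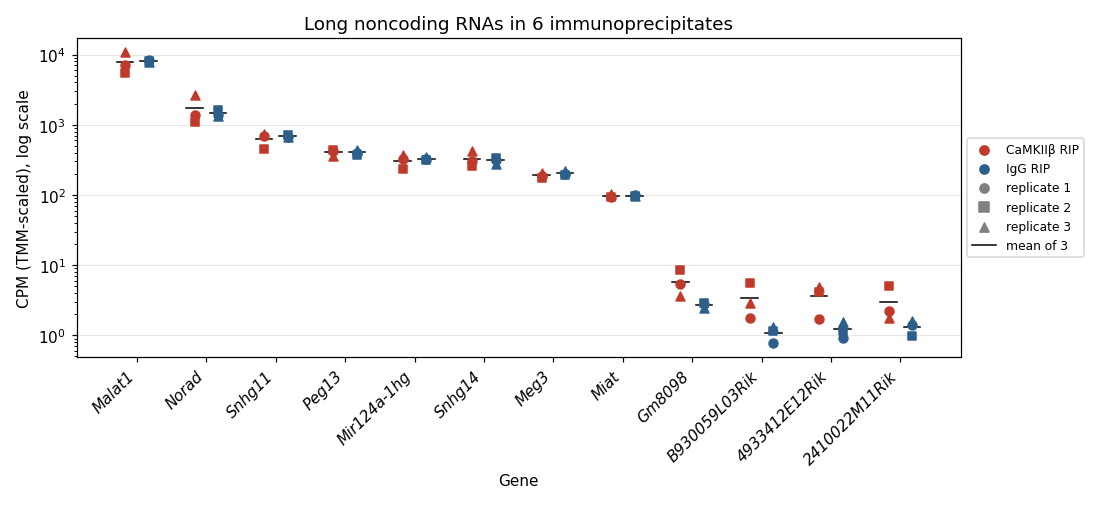
CPM on a log axis (vertical) for 12 long noncoding RNAs, with 1 point per library (red CaMKIIβ RIP, blue IgG RIP; symbols for replicates) and a line at the mean of 3. The 8 abundant RNAs on the left overlap between antibodies, and the 4 on the right are those highest with CaMKIIβ among RNAs with groups apart.

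The 4 long noncoding RNA genes with the largest higher estimates, among those whose mean log2 CPM reached 1 and whose groups did not overlap, had 1.73 to 8.52 CPM with CaMKIIβ. None of the 4 has a function that could be named here. B930059L03Rik (chromosome 12, bases 110590512 to 110592700) was at 1.77, 5.51 and 2.87 CPM with CaMKIIβ and 0.786, 1.17 and 1.30 CPM with IgG. Replicate 2 of CaMKIIβ was the highest, and the difference of 1.63 ± 0.60 became 1.09 without it. 4933412E12Rik (chromosome 10, bases 116949757 to 116963279) was at 1.73, 4.15 and 4.85 CPM with CaMKIIβ and 0.917, 1.17 and 1.55 CPM with IgG, with replicates 2 and 3 both high, and differed by 1.55 ± 0.57. Gm8098 (chromosome 11, bases 30267464 to 30280491), whose start is printed above, was at 5.35, 8.52 and 3.58 CPM with CaMKIIβ and 2.84, 2.88 and 2.46 CPM with IgG and differed by 1.09 ± 0.40, or by 0.71 without replicate 2. The estimate for 2410022M11Rik, 1.18 ± 0.60, was 0.59 without replicate 2. The adjusted p was 0.982 for each of the 4.

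At the other end, Pitpnm2os1, a transcript antisense to Pitpnm2 (chromosome 5, bases 124229725 to 124237137), was at 2.98, 0 and 1.93 CPM with CaMKIIβ and 4.41, 3.69 and 4.80 CPM with IgG. Replicate 2 of CaMKIIβ had 0 counts, and the other 2 CaMKIIβ libraries lay below all IgG libraries. The difference was -1.38 ± 0.95, and -0.81 without replicate 2. Whether counting used strand is not given in the sources used here, so reads of Pitpnm2os1 and of Pitpnm2 may not be told apart. Pantr2, a neighbour of Pou3f3, was at 1.25, 0 and 2.45 CPM with CaMKIIβ and 2.58, 3.19 and 4.26 CPM with IgG, and Gm15713 was also at 0 counts in replicate 2. Gm13630 was lowest in replicate 3, at 2.34, 0.739 and 0.141 CPM with CaMKIIβ against 2.36, 3.37 and 2.82 CPM with IgG. Their SEs were 0.85 to 1.03, and none passed the test.

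Bc1, a short RNA polymerase III transcript carried into dendrites, where it represses translation, was near the floor of detection. It was at 3.70, 0 and 3.20 CPM with CaMKIIβ and 2.49, 2.97 and 3.11 CPM with IgG, the level in replicate 2 being 0 counts, and its interval of -2.57 to 1.96 gave no direction. The difference was -0.30 ± 1.01 with all libraries and 0.27 without replicate 2. Rn7sk, the RNA polymerase III transcript that holds the elongation factor P-TEFb inactive, was at 4643, 10602 and 5782 CPM with CaMKIIβ and 6029, 5252 and 7037 CPM with IgG. Replicate 2 of CaMKIIβ was the highest library, the other 5 lying between 4643 and 7037 CPM. The difference of 0.20 ± 0.25 became -0.23 without that replicate.

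Across all classes, the 6 largest higher estimates among genes whose groups did not overlap had 1.53 to 9.32 CPM with CaMKIIβ. Mfsd9, a putative membrane transporter, was at 1.89, 9.32 and 3.95 CPM with CaMKIIβ and 0.48, 1.12 and 0.65 CPM with IgG, with all 3 CaMKIIβ libraries above all IgG libraries and replicate 2 the highest. It differed by 2.74 ± 0.67 (unadjusted p = 0.00236, adjusted p = 0.982), and by 1.95 without replicate 2. Hspb1, a small heat shock protein, was at 2.74, 9.32 and 3.53 CPM with CaMKIIβ and 2.01, 0.765 and 2.06 CPM with IgG and differed by 1.68 ± 0.60, or by 0.95 without it. Zbtb32, a zinc finger repressor, and Mapkapk5, a kinase of the MAP kinase cascade, differed by 1.73 ± 0.68 and 1.57 ± 0.58, and by 0.93 and 0.75 without it. Leaving out CaMKIIβ replicate 1 instead gave larger differences of 3.13, 1.98, 2.09 and 1.86 for Mfsd9, Hspb1, Zbtb32 and Mapkapk5. The other two were the long noncoding B930059L03Rik and 4933412E12Rik.

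The 6 largest lower estimates were equally low in level. Klhdc9, a kelch-domain gene, was at 1.89, 0 and 0.753 CPM with CaMKIIβ and 4.02, 2.97 and 3.54 CPM with IgG, and Cfap298, a cilia gene, at 2.13, 0 and 0.8 CPM with CaMKIIβ and 2.97, 2.79 and 3.25 CPM with IgG. Their differences were -1.96 ± 0.99 and -1.59 ± 1.03, and -1.39 and -1.02 without CaMKIIβ replicate 2. Tm6sf2, a gene of hepatic lipid export, and Wdr53 shared this pattern of 0 counts in CaMKIIβ replicate 2, with differences of -1.55 ± 1.02 and -1.55 ± 0.98, or -0.98 and -0.98 without that replicate. Leaving out CaMKIIβ replicate 1 instead gave larger differences of -3.17, -2.87, -3.63 and -2.51 for Klhdc9, Cfap298, Tm6sf2 and Wdr53. Cracr2a, a regulator of calcium release-activated channels, had 1.41, 0.0568 and 1.51 CPM with CaMKIIβ and differed by -1.54 ± 0.87, or -1.004 without replicate 2. Gm16580, annotated as a pseudogene, had 1.41, 0.17 and 0.659 CPM against 2.71, 2.79 and 4.05 CPM with IgG, a difference of -2.07 ± 0.75, and reads it may share with a related gene make this value uncertain.

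The 6 smallest p-values among named genes belonged to genes of higher level and smaller change, apart from Mfsd9. Pcmt1, which repairs damaged aspartate residues in proteins, was at 32.1, 52.8 and 47.4 CPM with CaMKIIβ and 25.4, 24.8 and 25.8 CPM with IgG, and the even IgG libraries lay below every CaMKIIβ library. Its difference of 0.80 ± 0.19 (unadjusted p = 0.00176) was 0.65 without replicate 2. Nat8l, which makes N-acetylaspartate in neurons, was at 331, 387 and 413 CPM with CaMKIIβ and 274, 281 and 299.9 CPM with IgG, a difference of 0.40 ± 0.10 that stood at 0.38 without replicate 2. Psmb4, a proteasome core subunit, was at 35.8, 48.2 and 45.4 CPM with CaMKIIβ and 30.9, 28.02 and 28.00 CPM with IgG and differed by 0.57 ± 0.15. On the lower side, R3hdm2, which encodes a protein with an R3H nucleic acid-binding domain, was at 196, 147 and 151 CPM with CaMKIIβ and 216, 223 and 233 CPM with IgG and differed by -0.44 ± 0.12. mt-Cytb, the mitochondrially encoded cytochrome b, was at 166, 85.96 and 171 CPM with CaMKIIβ and 242, 244 and 255 CPM with IgG and differed by -0.81 ± 0.22. The adjusted p was 0.982 for all 6.

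3 genes with a mean log2 CPM of 6 or more and no RefSeq match lay beyond 2-fold, and they were picked out after their values were seen. ENSMUSG00000118642.1 (chromosome 17, bases 39848103 to 39848827) was at 309.9, 1172 and 776 CPM with CaMKIIβ and 253, 302 and 294 CPM with IgG, where replicates 2 and 3 of CaMKIIβ were high and replicate 1 lay just above the IgG libraries. Its difference was 1.41 ± 0.38 (unadjusted p = 0.0056, adjusted p = 0.982). ENSMUSG00000071753.13 (chromosome X, bases 61116378 to 61203785) was at 836, 137 and 596 CPM with CaMKIIβ and 1464, 1081 and 1401 CPM with IgG and differed by -1.33 ± 0.62 (adjusted p = 0.982). The log2 ratios of mean CPM without CaMKIIβ replicate 2 were 0.94 and -0.88. The third gene was high in CaMKIIβ replicate 2, at 994 CPM against 41.1 to 167 CPM in the other 5 libraries.

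**Figure D3:**
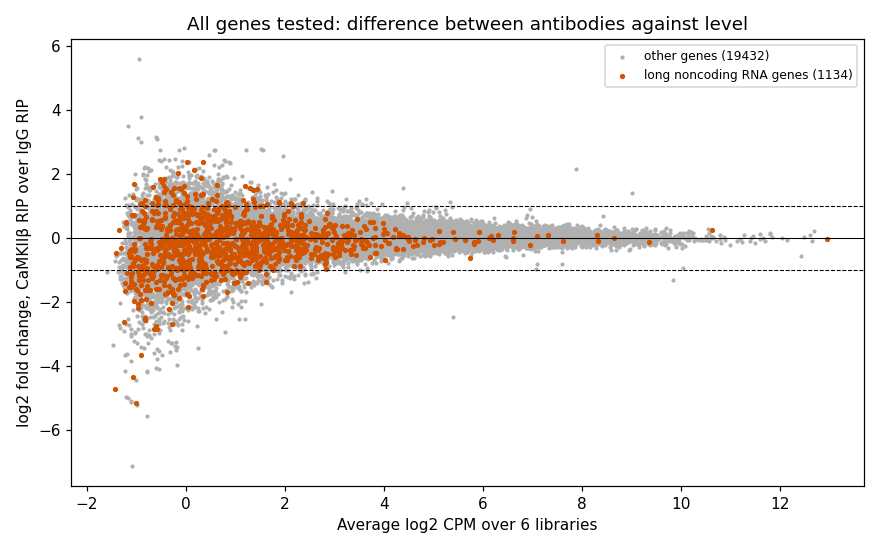
log2 fold change of CaMKIIβ RIP over IgG RIP (vertical) against average log2 CPM over 6 libraries (horizontal) for 20566 genes, with the 1134 long noncoding RNA genes in orange and dashed lines at 2-fold. The scatter narrows as the level rises, and the orange points follow the grey ones around 0.

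No gene of the synaptic groups passed the test. Of 20 CaMKII partners and substrates, 0 passed the test, all 20 had an interval within 2-fold, and the median difference was -0.02. Grin2b, the NMDA receptor subunit that docks the kinase, was at 862, 637 and 835 CPM with CaMKIIβ and 899.5, 864 and 883 CPM with IgG and differed by -0.18 ± 0.11, or -0.06 without CaMKIIβ replicate 2. Gria1, an AMPA receptor subunit phosphorylated by the kinase, differed by -0.01 ± 0.09, Map2 by -0.09 ± 0.09 and Shank3 by 0.10 ± 0.08. The groups did not overlap for 5 of the 20, against 12.1% of all genes, and 2 of these, chosen after their values were seen, had the largest differences in each direction. Cdk5r1, the activator of Cdk5, was at 136, 178 and 151 CPM with CaMKIIβ and 113, 115 and 124 CPM with IgG and differed by 0.40 ± 0.12. Syn1, a synaptic vesicle protein and CaMKII substrate, was at 209, 202 and 189 CPM with CaMKIIβ and 247, 232 and 264 CPM with IgG and differed by -0.31 ± 0.09.

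Of 18 genes for the actin cytoskeleton of spines, to which the β subunit binds, 0 passed and 18 had an interval within 2-fold, with a median of 0.01. Actb was at 1047, 1323 and 1296 CPM with CaMKIIβ and 1064, 1023 and 1103 CPM with IgG and differed by 0.20 ± 0.10. Sptan1 and Ppp1r9b, which encode a spectrin and the spine protein neurabin-2, differed by -0.0039 ± 0.09 and -0.04 ± 0.14. The 19 postsynaptic scaffold genes had a median of -0.01, all within 2-fold, with Shank1 at -0.11 ± 0.11, Shank2 at -0.04 ± 0.09 and Agap2 at 0.11 ± 0.09. The 15 ionotropic glutamate receptor genes had a median of -0.01, all within 2-fold, with Grin1 at -0.03 ± 0.09 and Gria4 at -0.22 ± 0.14, or -0.07 without replicate 2.

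Of 19 mRNAs known from dendrites, 0 passed and in 0 did the groups lie apart, against 12.1% of all genes, with a median of -0.0035. Itpr1, the calcium release channel abundant in Purkinje cells, was at 6875, 6417 and 5786 CPM with CaMKIIβ and 5994, 5786 and 6313 CPM with IgG, and Kif1a, a motor of vesicle transport, differed by -0.11 ± 0.10. Among 18 synaptic vesicle and release genes the groups lay apart for 5, with 1 above and 4 below, against 5.12% and 6.93% of all genes. Their median was -0.04, and 0.02 without CaMKIIβ replicate 2. Pclo, an active zone scaffold, was at 1061, 718 and 981 CPM with CaMKIIβ and 1149, 1123 and 1185 CPM with IgG, with replicate 2 lowest, and differed by -0.32 ± 0.13, or -0.18 without it. Snap25, a membrane fusion protein, differed by -0.20 ± 0.11, or -0.09 without replicate 2, and Bsn by 0.02 ± 0.08.

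The 15 immediate early genes tested, which neurons transcribe upon activity, had a median of 0.04 and 0 past the test. The median was 0.13 without CaMKIIβ replicate 2 and -0.05 without replicate 3. Arc was at 71.7, 55.7 and 65.6 CPM with CaMKIIβ and 68.5, 69.8 and 66.4 CPM with IgG, and Jun, Fosl2 and Dusp5 differed by 0.0036 ± 0.11, 0.15 ± 0.12 and 0.05 ± 0.12. Of 21 genes for RNA-binding proteins of dendrites, 0 passed and the median was 0.04, or 0.13 without replicate 2 and -0.12 without replicate 3. Pura, which binds dendritic RNA granules, was at 179, 213 and 423 CPM with CaMKIIβ and 202, 227 and 194 CPM with IgG, and its paralogue Purb at 395, 396 and 748 CPM with CaMKIIβ and 441, 522 and 407 CPM with IgG. Replicate 3 of CaMKIIβ was the highest library for both, and their differences of 0.39 ± 0.27 and 0.17 ± 0.23 were -0.09 and -0.21 without it. The medians over all genes were 1.86e-05 and -0.06 in these fits. Caprin1 and Pum2 differed by 0.02 ± 0.11 and 0.25 ± 0.15.

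Mitochondrial mRNA held a lower share of counts in each CaMKIIβ library than in any IgG library, and no mitochondrial gene passed the test. Of 17 mitochondrially encoded genes tested, 5 had a positive difference, and the median was -0.57. That median turned on 1 library, since it was -0.09 without CaMKIIβ replicate 2 and -1.35 without replicate 3, when 7 and 0 of the 17 were positive. mt-Cox1, a cytochrome oxidase subunit, was at 5765, 3222 and 4275 CPM with CaMKIIβ and 6288, 7194 and 6255 CPM with IgG and differed by -0.57 ± 0.17, with every CaMKIIβ library below every IgG library, and by -0.39 without replicate 2. mt-Nd5, a complex I subunit, went both ways among CaMKIIβ libraries, at 239, 60.4 and 957 CPM against 342, 414 and 356 CPM with IgG. Mitochondrially encoded genes held 0.648%, 0.360% and 0.656% of counts with CaMKIIβ and 0.756%, 0.858% and 0.761% with IgG, a mean difference of -0.237 percentage points, or -0.139 without CaMKIIβ replicate 2. The two-sided exact permutation test gave p = 0.1, the smallest that 3 against 3 libraries allow. In points, the difference was -0.239 for the mRNAs (exact permutation p = 0.1), 0.00179 for mitochondrial rRNA (exact permutation p = 0.7) and 0.000101 for mitochondrial tRNA (exact permutation p = 1). The mRNAs held most of these counts, with IgG means of 0.775% against 0.0156% for rRNA and 0.00133% for tRNA. In log2, the median was -0.50 over 10 mRNAs and -0.66 over 5 tRNAs, or -0.08 and -0.12 without replicate 2. The rRNA genes mt-Rnr1 and mt-Rnr2 differed by -2.48 and 0.91. Long noncoding RNA genes held 1.51%, 1.29% and 2.06% against 1.70%, 1.71% and 1.58%, a mean difference of -0.0442 points (exact permutation p = 0.9), which was 0.00953 without CaMKIIβ replicate 1 and 0.122 without replicate 2.

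The nuclear-encoded subunits of the respiratory chain were high in 1 CaMKIIβ library. Of 23 tested, 0 passed, 16 had a positive difference and the median was 0.16, or 0.03 without CaMKIIβ replicate 2. The 23 genes summed to 3062, 3786 and 2887 CPM with CaMKIIβ and 2939, 2943 and 2945 CPM with IgG, so that replicate 3 lay below the IgG libraries. Atp5a1, Atp5b, Sdha and Cox4i1 differed by 0.23 ± 0.12, 0.11 ± 0.11, -0.03 ± 0.09 and -0.06 ± 0.11, and by 0.08, -0.02, 0.02 and -0.05 without replicate 2. Of 77 cytosolic ribosomal protein genes, 0 passed, 54 had a positive difference and the median was 0.14, beside -0.02 over all genes, or 0.08 without replicate 2. The 80 listed genes summed to 3182, 3801 and 3110 CPM with CaMKIIβ and 3305, 3013 and 3068 CPM with IgG. Replicate 2 alone stood above the IgG libraries. For the shares of counts the exact permutation test gave p = 0.5, where 3 against 3 libraries allow none below 0.1. Rplp0 was at 116, 188 and 117 CPM with CaMKIIβ and 118, 113 and 103 CPM with IgG, with replicate 2 the highest, a difference of 0.33 ± 0.18 that was 0.06 without it, while Rpsa, Rpl4 and Rps2 differed by -0.07 ± 0.19, 0.02 ± 0.16 and -0.08 ± 0.10.

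**Figure D4:**
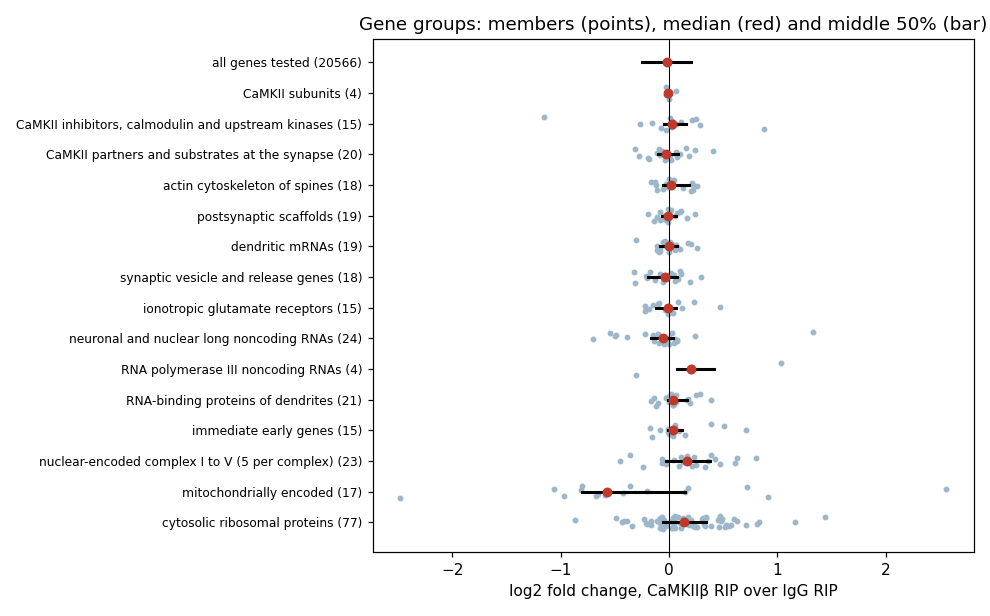
log2 fold change of CaMKIIβ RIP over IgG RIP (horizontal) for the members of 15 gene groups and for all 20566 genes, with members as points, medians in red and the middle 50% as bars; numbers tested stand in parentheses. Medians lie between -0.05 and 0.20 except for mitochondrially encoded genes, at -0.57, which was -0.09 without CaMKIIβ replicate 2.

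Marker levels were checked against the labelled tissue, and cerebellar markers were present in every library beside hippocampal ones. The 16 markers of hippocampal neurons summed to 391 to 407 CPM with CaMKIIβ and 389 to 390.3 CPM with IgG. The gap between these ranges is smaller than the spread of TMM factors, 0.983 to 1.02, which the sums leave out. The 11 markers of cerebellar granule neurons summed to 6651 to 7230 and 6914 to 7053 CPM, Gabra6, their receptor subunit, being at 178, 250.2 and 250.4 CPM with CaMKIIβ and 215, 221 and 199 CPM with IgG. The 9 Purkinje cell markers summed to 7990 to 9096 and 8176 to 8417 CPM. A single gene made most of each cerebellar sum, Fat2 for granule neurons and Itpr1 for Purkinje cells. Their means over CaMKIIβ replicates 1 and 3 were 4182 and 6330 CPM. None of these 3 lists had a defining marker at 0 in a library, although Spink8, of the pyramidal CA1 field, was at 0.644, 0.511 and 0.235 CPM with CaMKIIβ and 1.61, 1.35 and 1.81 CPM with IgG. Sums over different genes are not corrected for length. Marker sums of astrocytes, oligodendrocytes, inhibitory neurons, microglia and vessels overlapped between antibodies. Those of blood did not, at 179, 358 and 249.9 CPM with CaMKIIβ and 178, 166 and 157 CPM with IgG, and neither did those of choroid plexus and ependyma, at 542 to 747 and 502 to 533 CPM. In both, the nearest libraries of the 2 antibodies lay closer than the spread of TMM factors. Of 7 choroid plexus and ependyma markers tested, 3 had a positive difference. Their median was -0.03, or 0.10 without CaMKIIβ replicate 2. Hba-a1, a haemoglobin gene with a near-identical copy, was at 28.02, 108 and 30.6 CPM with CaMKIIβ and 26.97, 26.9 and 22.8 CPM with IgG, a difference of 1.12 ± 0.44 that was 0.20 without replicate 2. Of 8 blood markers tested, 5 had a positive difference, while Alas2, Slc4a1 and Ptprc differed by -0.13, -0.10 and -0.77. The median of the 8 was 0.65, or 0.09 without replicate 2. The part of these cells in other differences was not tested.

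The libraries were compared with each other. In limma-voom's library weights, replicates 2 and 3 got 0.181 and 0.547 and the other 4 libraries 1.07 to 3.28. Total counts were 17273957 in replicate 2 and 21406489 to 28138289 in the other 5. Of 15026 genes whose mean log2 CPM reached 1, replicate 2 lay more than 2-fold above all 5 other libraries for 212 and below them for 881, and replicate 3 for 65 and 109. Replicate 1 did so for 0 and 4 and no IgG library for more than 4. Replicate 2 alone had 0 counts for 2634 tested genes, against at most 129 in any other library. Lhx5, a transcription factor, was at 13.00, 0 and 15.8 CPM with CaMKIIβ and 12.05, 11.5 and 13.6 CPM with IgG, and Bloc1s4, a gene for biogenesis of lysosome-related organelles, at 10.02, 34.9 and 9.56 CPM with CaMKIIβ and 9.38, 8.91 and 7.08 CPM with IgG. Replicate 3 was set apart by mt-Nd6, at 62.04, 4.32 and 373 CPM with CaMKIIβ and 81.7, 96.3 and 88.9 CPM with IgG, and low for Zfp110, at 16.1, 16.9 and 4.71 CPM.

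Replicate 2 was also the extreme library for most genes whose groups did not overlap. Among the 1054 genes with all CaMKIIβ libraries above, replicate 2 was the highest for 655 (62.1%), and among the 1425 below it was the lowest for 1041 (73.1%), with 0 counts for 418. Without replicate 2, an alternative chosen after seeing the data, 2110 genes (10.3%) lay above and 2284 (11.1%) below, with 2 against 3 libraries. Fewer libraries let more genes lie apart by chance, so these shares cannot be compared with those of 3 against 3. Among 9907 protein-coding genes whose mean log2 CPM reached 3, replicate 2 deviated from the mean of the other 5 libraries by a median log2 of 0.20 in 192 genes with 1 exon block and by -0.08 in 2180 genes with 20 or more. In the other 5 libraries these medians lay between -0.12 and 0.05.

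The 6 libraries could place most abundant genes within narrow bounds. The 95% interval of the difference lay within 2-fold for 10691 of 20566 genes, and for 9865 of 14095 protein-coding genes. The share was 2.93% at an average log2 CPM of 1 to 2, 76.1% at 3 to 4 and 99.4% at 7 or more. The median SD of log2 CPM among CaMKIIβ libraries was 0.36 at 3 to 4, against 0.16 among IgG libraries.

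**Figure D5:**
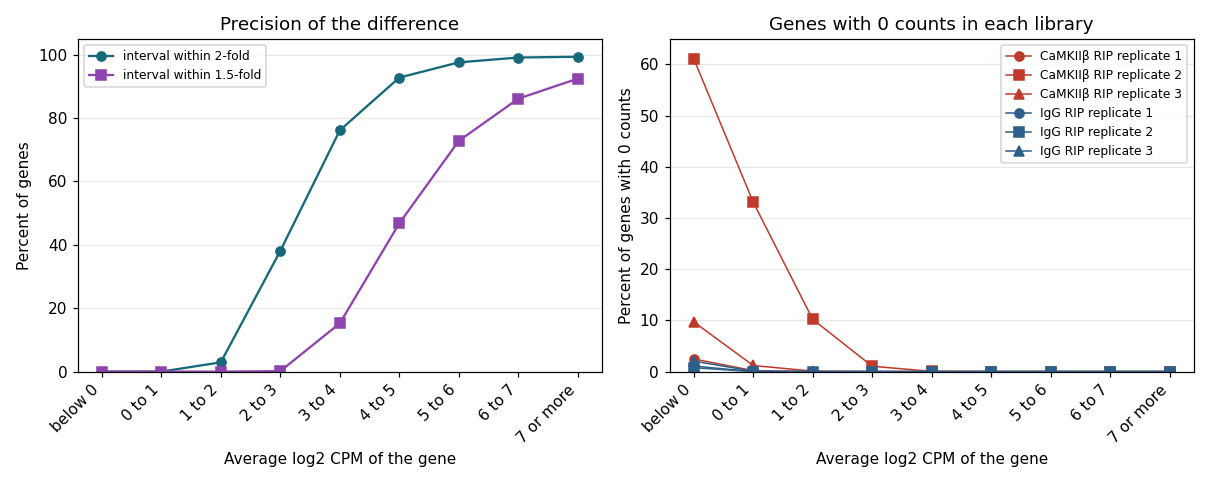
Left, percent of genes (vertical) whose 95% interval lay within 2-fold or 1.5-fold, by average log2 CPM of the gene (horizontal). Right, percent of genes with 0 counts in each library on the same horizontal axis, where CaMKIIβ replicate 2 starts at 61.1% and no other library exceeds 9.73%.

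Both precipitates were also set beside Input, whose 2 libraries are shared by both differences, in a fit of all 8 libraries. There, Camk2b differed from Input by 0.52 ± 0.11 for CaMKIIβ and 0.56 ± 0.11 for IgG, and Camk2a by 1.03 ± 0.12 for CaMKIIβ and 1.05 ± 0.12 for IgG. Malat1 differed by -1.44 ± 0.20 for CaMKIIβ and -1.38 ± 0.20 for IgG, Meg3 by -0.81 ± 0.10 for CaMKIIβ and -0.71 ± 0.10 for IgG and Norad by 0.82 ± 0.28 for CaMKIIβ and 0.60 ± 0.28 for IgG. mt-Cytb differed by -3.09 ± 0.22 for CaMKIIβ and -2.27 ± 0.22 for IgG. Mfsd9 differed from Input by 1.81 ± 0.72 for CaMKIIβ and -0.92 ± 0.69 for IgG, and Gm8098 by 1.07 ± 0.44 for CaMKIIβ and -0.0049 ± 0.43 for IgG. Since mt-Cytb, Mfsd9 and Gm8098 were named for their difference between the antibodies in these libraries, their gaps here repeat that choice. CaMKIIβ replicate 2 was not left out of this fit.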

How the data were processed

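RNA was measured by RIP-seq. Gene-level raw counts of all 8 libraries were taken as deposited by the authors. Per the submitters' processing notes, featureCounts 2.0.1, STAR 2.7.3a, cutadapt 2.10 and Trim Galore 0.6.4 were used, with GRCm38.p6 as the build. Totals were 17273957 to 28138289 counts per library. Not given in the sources used here are strandedness, the annotation release, and how duplicates and multiply mapped reads were treated. Libraries were grouped by the antibody in their titles.

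Symbols and classes came from RefSeq genes of GRCm38.p6 that shared at least 0.5 of the joint span, on the same strand where known. They named 34169 of 55401 genes, which held 96.2% of counts, and the other 21232 were tested without a name.

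The 6 RIP libraries were fitted by edgeR 4.0.16 (R 4.3.3) with TMM scaling and robust quasi-likelihood F tests after filterByExpr (count minimum 10, total minimum 15), with Benjamini-Hochberg adjustment over all genes and a threshold of 0.05. Intervals are 95%. The test was also run on simulated counts, with 200 changed genes at an average log2 CPM of 1 or more. It recovered 50%, 78.8% and 89.4% of changes of 2-, 4- and 8-fold, and it called 7 unchanged genes among 19347 tested. The simulation gave all libraries the same spread, unlike the libraries here. No block was used in the main fit, since the labels do not tie equal replicate numbers to shared animals. Deviations of same-numbered libraries from their group means had correlations of -0.001, -0.03 and -0.09 for replicates 1, 2 and 3. Alternatives used other scalings, filters and libraries, DESeq2 1.42.0 and limma 3.58.1 (voom). Python 3.11.15 made the tables and figures.

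Members and gene lists were chosen with earlier results of these data known. Named genes were the CaMKII, calmodulin and related kinase genes, the largest differences without overlap in each direction (6 genes, 4 long noncoding RNA genes) at a mean log2 CPM of 1 or more, the most abundant 8 genes and 6 long noncoding RNA genes, up to 4 most abundant members of a list, for each CaMKIIβ library the 3 genes per direction farthest from the other 5, the 3 long noncoding RNA genes with the narrowest interval and the 6 smallest p-values. Genes outside this rule are marked as chosen after their values were seen, or illustrate a marker list. Medians of lists without a replicate were added after seeing the data. Some genes under the rule are not reported here.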

Additional observations from a re-analysis of the deposited data

How the results depend on the processing

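The count of genes past the threshold was 0 over all genes and 0 over long noncoding RNA genes under each of the 17 alternatives, which were 4 other scalings (library size, upper quartile, RLE, and TMM leaving out mitochondrially encoded genes), 2 other filters (none, and 10 counts in each library of 1 group), DESeq2, limma-voom with and without library weights, Input added to the fit, the replicate block and each RIP library left out. The count at an unadjusted p under 0.05 ran from 204 to 2592 among them, was 907 with DESeq2, and was highest without CaMKIIβ replicate 1. The smallest adjusted p of any alternative was 0.191, with limma-voom and library weights. With the replicate block, which is a paired fit on numbers that the labels do not tie to shared animals, 0 genes passed and 10369 had an interval within 2-fold. Leaving out each library gave 9304 to 12159 such genes. The mean difference in the share of counts in long noncoding RNA genes, -0.0442 percentage points, changed sign to 0.00953 without CaMKIIβ replicate 1 and to 0.122 without CaMKIIβ replicate 2, within a range of -0.264 to 0.122 over the libraries left out; that for mitochondrially encoded genes ran from -0.287 to -0.139. Of 2482 values of the 146 named genes, 0 passed the threshold and 166, in 68 genes, had the other sign. Genes at low counts limit what could be seen: below an average log2 CPM of 1 no interval lay within 2-fold.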
